A study of Homo sapiens with 28 samples.

Results

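The list of constitutive proteasome genes read here holds 34 human genes. It has 7 of the 20S alpha ring, 7 of the 20S beta ring, 6 ATPases of the 19S base, 3 other base subunits and 8 of the 19S lid. The other 3 (PSMD5, PSMD9 and PSMD10) are factors that assist assembly of the base. SEM1 and ADRM1, also parts of the cap, are not on the list and are described apart. Members were taken by gene symbol, without the inducible beta subunits. Of the 34 genes, 30 had at least 1 probe set annotated to that symbol alone, and all 30 were tested among 15437 genes of 19775 with such a probe set. PSMA6 was only in probe sets annotated to several genes and was not used. The RNA levels of PSMC5, PSMD7 and PSMD13 were not analysed here, and these 3 genes and PSMA6 enter only the account of upstream sequence.

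The 26S proteasome degrades proteins tagged with ubiquitin. Its 20S core is a barrel whose outer alpha rings gate the entrance and whose inner beta rings carry the proteolytic sites, and its 19S cap binds ubiquitin, removes it, and unfolds the substrate with a ring of ATPases. Myeloma cells make large amounts of immunoglobulin and depend on this machinery, and proteasome inhibitors are used against the disease. When proteasome capacity is short, the transcription factor NFE2L1, paired with a small MAF protein, raises transcription of the subunit genes together through antioxidant response elements.

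The study exposed 4 human myeloma cell lines, U266, MM.1s, KMS11 and 8226/S, to arsenic compounds and measured RNA on oligonucleotide arrays. Arsenic trioxide (ATO), an inorganic arsenical, was given at 2 µM for 6, 24 or 48 h to every line. Darinaparsin (DAR), an organic arsenical in which dimethylated arsenic is bound to glutathione, was given for 6 or 24 h at 4 µM to U266, 3 µM to MM.1s and KMS11, and 2 µM to 8226/S. Each line also had an untreated array numbered Control 2 and another numbered Control 1, so each of the 7 groups held 4 arrays, 1 per line, and 28 arrays were analysed. All treated and untreated cells of a line shared the same medium with fetal bovine serum. The untreated arrays stand for 0 h, so time in culture and treatment cannot be told apart. The labels do not say that the arrays came from separate cultures, so the p-value of a change measures only its spread across the 4 lines. That spread was estimated for each gene in 1 fit to all 28 arrays and moderated over all genes. Each standard error (SE) comes from this fit, so it is not the SE of the 4 line changes of that comparison alone. RNA came from whole cultures, in which fewer cells of a type and less RNA per cell cannot be told apart.

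The array signals fell into a Control 2 and ATO set and a Control 1 and DAR set. The median signal of an array was 111 to 147 in the 16 ATO and Control 2 arrays and 65.5 to 109 in the 12 DAR and Control 1 arrays. The ratio of 3′ to 5′ signal of ACTB, a measure of RNA and labelling quality, was 1.03 to 1.27 in the ATO and Control 2 arrays and 1.29 to 2.19 in the DAR and Control 1 arrays. Each of the 20 treated arrays lay nearer to the untreated array of its line that belongs to its set than to the other one. ATO was therefore compared with Control 2 and DAR with Control 1, each within its line. The same comparison with all 8 untreated arrays as the baseline is given beside the counts. That baseline averages the 2 controls of each line, so the difference between them enters every change measured from it. HMOX1, heme oxygenase, which arsenic is known to induce, had 27210, 30250, 27790 and 31360 signal units at 6 h of ATO in U266, MM.1s, KMS11 and 8226/S, against 1992, 513, 587 and 3517 units in Control 2. In the same line order it had 24630, 2969, 19200 and 17860 units at 6 h of DAR. At 24 h of DAR HMOX1 had 3694, 502.5, 971 and 9978 units, against 2535, 664, 832 and 5078 units in Control 1. The plasma cell antigen SDC1 was between 1469 and 18640 units on every array, while CD38 was as low as 9.30 units in KMS11. EPCAM, an epithelial antigen, was at 6542 to 11540 units in 8226/S and at 1925 to 3454 units in KMS11, against at most 73.7 units in the other lines.

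Sequence upstream of the genes is shown because many members changed together after ATO. RefSeq windows of 300 bases, from 250 before to 50 after a transcription start on GRCh38.p14, were at hand for 29 of the 34 genes. The core of the antioxidant response element, TGAC and GCA with any 3 bases between them, was searched on both strands as the only motif. It was in a window of 7 of these genes (24.1%), against 3.94% of all 27305 genes with windows. A match in letters is not evidence of binding. The matches lay in PSMD12, PSMD9, PSMA4, PSMB3 and PSMC5 before the start and in PSMD3 and PSMD1 after it. Each is printed on the strand of its gene with up to 10 bases on either side, and capitals mark the match, which reads in reverse complement in PSMD9, PSMC5 and PSMD3.
PSMD12, chr17:67366723-67366752, minus strand: agacaaaaccTGACGCTGCAggctggagtg
PSMD9, chr12:121888630-121888659, plus strand: acgctactccTGCCGGGTCAccacaggcgc
PSMA4, chr15:78540650-78540679, plus strand: gtgggcacgaTGACTCTGCAccgcctcctc
PSMB3, chr17:38752627-38752656, plus strand: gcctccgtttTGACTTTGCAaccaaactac
PSMC5, chr17:63827653-63827682, plus strand: cgaccggatcTGCTGTGTCAgcgccgccct
PSMD3, chr17:39980829-39980856, plus strand: ggtttgcagcTGCTCCGTCAtcgtgcgg
PSMD1, chr2:231056896-231056916, plus strand: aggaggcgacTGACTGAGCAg

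The match was in 4 of the 16 genes with a window that rose at 6 h of ATO and in 2 of the 9 with a window that did not pass the test there. PSMD11, the member with the highest change at 6 h of ATO, had no match in its window, and PSMD12, another lid subunit that rose, had 1 match 165 bases before the start. The 250 bases before each start are printed for these 2 lid genes, with the match in capitals.
PSMD11, chr17:32444260-32444509, plus strand: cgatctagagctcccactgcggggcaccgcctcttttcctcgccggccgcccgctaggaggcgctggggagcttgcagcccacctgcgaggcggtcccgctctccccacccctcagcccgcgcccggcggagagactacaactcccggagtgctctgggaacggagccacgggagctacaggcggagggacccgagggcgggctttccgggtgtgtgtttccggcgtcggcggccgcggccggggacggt
PSMD12, chr17:67366578-67366827, minus strand: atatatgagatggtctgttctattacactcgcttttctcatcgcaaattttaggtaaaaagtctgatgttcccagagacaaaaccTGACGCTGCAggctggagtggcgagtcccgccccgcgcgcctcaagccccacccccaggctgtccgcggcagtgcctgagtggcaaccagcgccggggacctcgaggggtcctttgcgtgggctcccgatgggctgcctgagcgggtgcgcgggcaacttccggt

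At 6 h of ATO most proteasome RNAs were higher than in Control 2, among them every tested ATPase and the 3 catalytic subunits. Of the 30 members, 18 rose and 0 fell (limma, Benjamini-Hochberg adjusted p under 0.05), against 3.78% of all genes higher and 2.64% lower. A change is the difference of log2(signal + 29) averaged over the 4 lines. The median change of the members was 0.39, with 29 of 30 above 0, while the median of all genes was 0.00. The changes were the same way in all 4 lines, upward, for 24 of the 30 members, against 14.7% of all genes. The line medians were 0.23 in U266, 0.77 in MM.1s, 0.42 in KMS11 and 0.24 in 8226/S. Without MM.1s or without KMS11, 4 of the 18 genes still passed the test, PSMC2, PSMD11 and PSMD14 in both cases. Calls over all genes were also fewer, 372 without MM.1s and 255 without KMS11 against 990 with all lines. The median change of the members was 0.28 without MM.1s and 0.37 without KMS11. Against all 8 untreated arrays as the baseline, 2 members rose (PSMD3 and PSMD12), where 4.15% of all genes were higher and 3.97% lower. The median change of the members was 0.05. PSMD3 was lower in Control 1 than in Control 2, which by itself raises its ATO change on this baseline.

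The lid of the 19S cap, which holds the deubiquitinase and its scaffold, had 5 of 6 tested members that rose at 6 h of ATO, with a median change of 0.66. PSMD11, a scaffold subunit that stabilises the joining of cap and core, had 7534, 11180, 12480 and 8615 signal units at 6 h of ATO in U266, MM.1s, KMS11 and 8226/S, against 4988, 4800, 7007 and 5378 units in Control 2. Each ATO array was above every Control 2 array. The change was 0.83 ± 0.12 (SE of the fit, n = 4 lines), a fold of 1.78, with a limma adjusted p of 0.000128. Against all 8 untreated arrays it was 0.46 (limma adjusted p = 0.0991). PSMD14, the metalloprotease that cuts ubiquitin from the substrate, had 6940, 12960, 9522 and 10550 units at 6 h of ATO, against 5881, 5556, 5474 and 7344 units in Control 2. The groups overlapped, since U266 with ATO was below untreated 8226/S, but each line was higher with ATO (change 0.69 ± 0.11, limma adjusted p = 0.000317). PSMD12, a lid scaffold subunit, had 4337, 7214, 8609 and 7444 units at 6 h of ATO, against 3317, 3335, 5251 and 5981 units in Control 2 (change 0.63 ± 0.12, limma adjusted p = 0.00201). PSMD3, also a scaffold of the lid, had 4081, 10190, 10200 and 6841 units at 6 h of ATO, against 3037, 4032, 7721 and 4529 units in Control 2. MM.1s showed the widest difference, and the change over the lines was 0.69 ± 0.14 (limma adjusted p = 0.00386). PSMD6 also rose (0.41 ± 0.11), and PSMD8 did not pass the test (0.20 ± 0.09, limma adjusted p = 0.203).

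All 5 tested ATPases of the base, the motor that unfolds substrates, rose at 6 h of ATO, with changes of 0.50 (PSMC3) to 0.74 (PSMC6) and a median of 0.60. PSMC6 had 2916, 3969, 4533 and 4214 units at 6 h of ATO in U266, MM.1s, KMS11 and 8226/S, against 2460, 1859, 2334 and 2591 units in Control 2. Every ATO array was above every Control 2 array, and U266 had the smallest rise (change 0.74 ± 0.15, limma adjusted p = 0.00272). PSMC2 had 13910, 12350, 13640 and 12220 units at 6 h of ATO, against 10770, 7094, 8557 and 9194 units in Control 2, again without overlap (change 0.56 ± 0.09, limma adjusted p = 0.000296). PSMC4 had 4362, 6169, 4778 and 2419 units at 6 h of ATO, against 3440, 2146, 3185 and 1934 units in Control 2. Here the line changes were 0.34, 1.51, 0.58 and 0.32, so MM.1s carried most of the mean of 0.69 ± 0.15. Among the other base subunits, the scaffold PSMD1 (0.52 ± 0.13) and PSMD2 (0.39 ± 0.10) rose, and the ubiquitin receptor PSMD4 had a change of 0.27 ± 0.09 (limma adjusted p = 0.0762).

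In the 20S core 5 of 13 tested members rose at 6 h of ATO, with a median change of 0.31, against 12 of 14 and a median of 0.58 for the 19S cap without its assembly factors. The difference between core and cap was not tested. The 3 genes of the proteolytic sites all rose. PSMB5, the chymotrypsin-like site and main target of bortezomib, had 4264, 3393, 4448 and 5313 units at 6 h of ATO in U266, MM.1s, KMS11 and 8226/S, against 3583, 2011, 3293 and 4324 units in Control 2. The groups overlapped, but each line was higher with ATO (change 0.43 ± 0.11, limma adjusted p = 0.0204). PSMB7, the trypsin-like site, had 9444, 10990, 7499 and 10500 units at 6 h of ATO, against 8012, 6138, 4819 and 9256 units in Control 2 (change 0.47 ± 0.10, limma adjusted p = 0.0065). PSMB6, the caspase-like site, had 5494, 12440, 5031 and 7591 units at 6 h of ATO, against 4758, 6573, 3632 and 7412 units in Control 2. Its change was 0.92 in MM.1s and 0.03 in 8226/S, with a mean of 0.41 ± 0.12 (limma adjusted p = 0.0349). PSMB4, a structural beta subunit, rose by 0.36 ± 0.09, and PSMB3 had the lowest change of the ring, 0.13 ± 0.09.

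The alpha ring, which gates the core, had 1 of 6 tested members that rose at 6 h of ATO, PSMA3 (0.40 ± 0.10, limma adjusted p = 0.0227), and a median change of 0.23. PSMA7 had 6582, 12010, 14200 and 8680 units at 6 h of ATO in U266, MM.1s, KMS11 and 8226/S, against 5365, 8019, 12310 and 8893 units in Control 2. The 2 groups overlapped and 8226/S was slightly lower with ATO (change 0.26 ± 0.11, limma adjusted p = 0.182). PSMA2 had the lowest change of the ring, 0.08 ± 0.07. PSMA1 did not pass the test on its brightest probe set (0.20 ± 0.10). A dimmer probe set of PSMA1 rose (0.38 ± 0.09, limma adjusted p = 0.0111 over all probe sets), and another did not pass (0.33 ± 0.11). The count for the ring thus depends on the probe set read. Of the base assembly factors, which hold ATPases before they join the cap, PSMD9 rose (0.32 ± 0.09, limma adjusted p = 0.0415). PSMD10 had a change of 0.23 ± 0.10 (limma adjusted p = 0.183). PSMD5 had 1245, 2642, 1834 and 1431 units at 6 h of ATO, against 1137, 2141, 1914 and 2498 units in Control 2, so it was higher in U266 and MM.1s and lower in KMS11 and 8226/S (change -0.11 ± 0.14, limma adjusted p = 0.785).

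**Figure D1:**
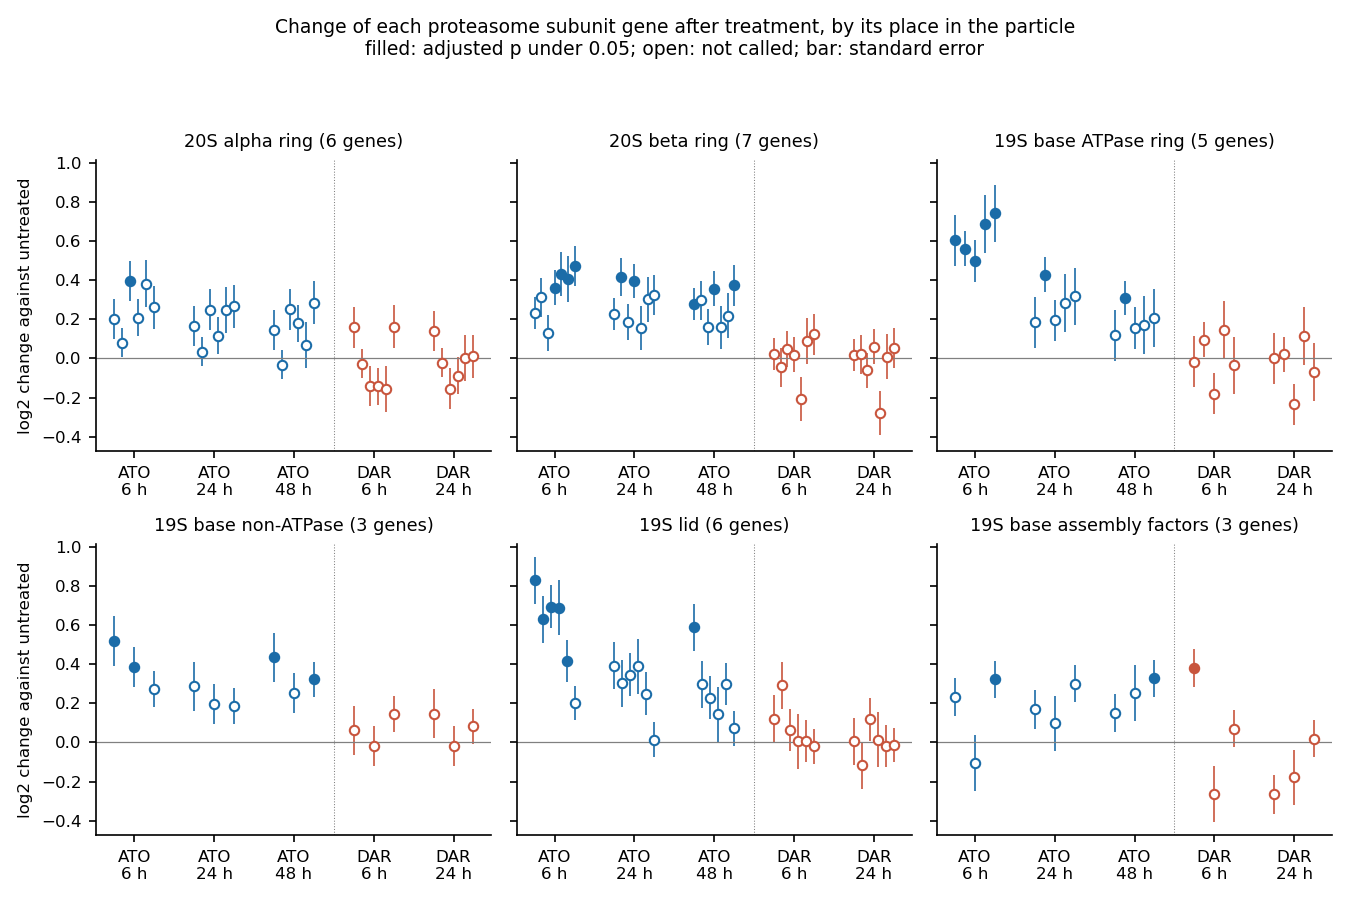
Each point is 1 of the 30 genes; the vertical axis is its log2 change against the untreated arrays of the same set, with a bar of 1 standard error (n = 4 lines), at ATO 6, 24 and 48 h (blue) and DAR 6 and 24 h (red). At 6 h of ATO the 5 ATPases are filled (called) and lie between 0.50 and 0.74; after DAR 1 gene, the assembly factor PSMD10 at 6 h, is filled.

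**Figure D2:**
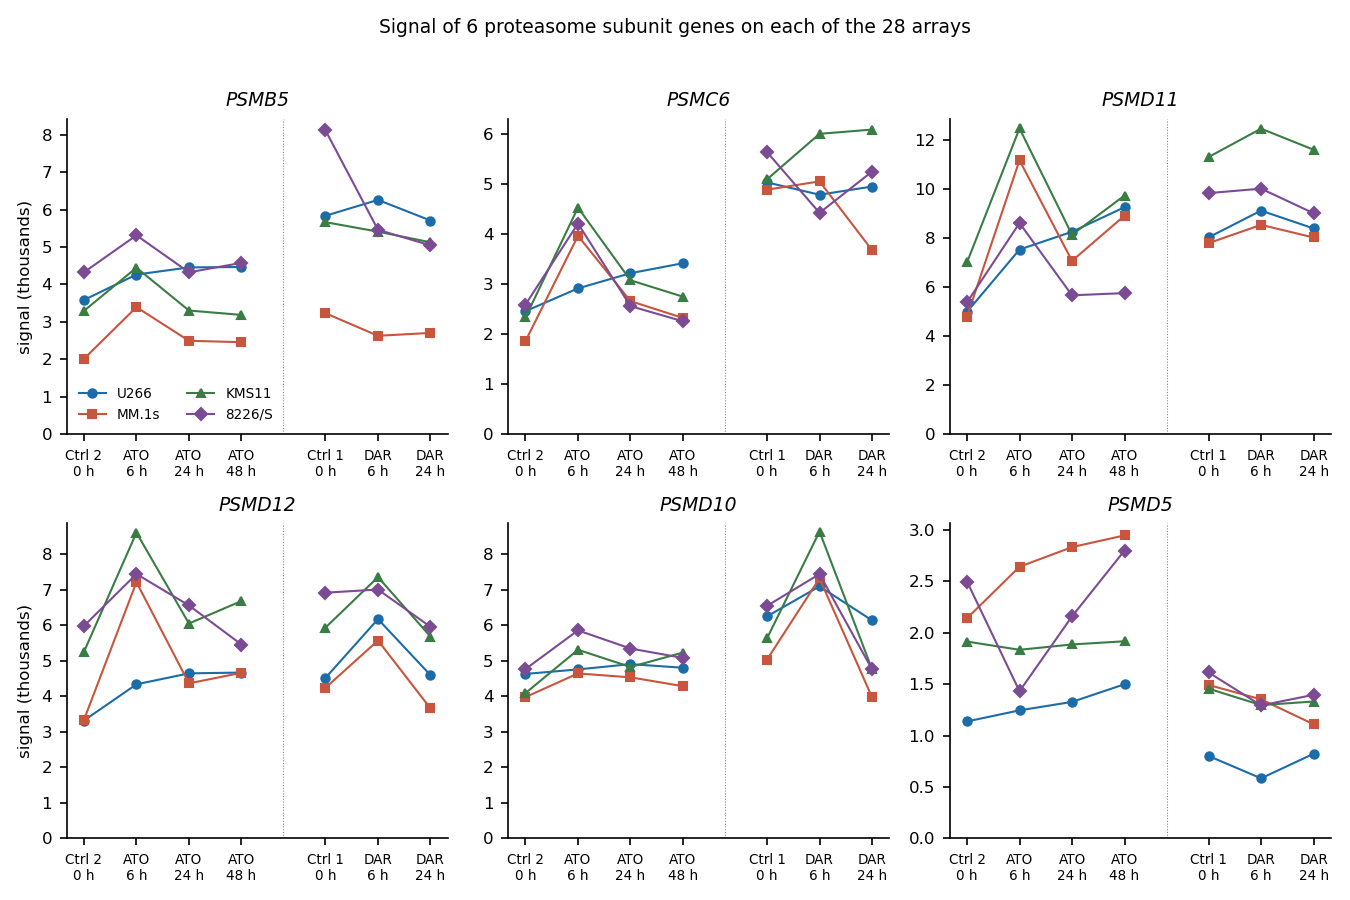
Signal (axis in units of 1000) of PSMB5, PSMC6, PSMD11, PSMD12, PSMD10 and PSMD5 on each of the 28 arrays, 1 line per cell line, with the untreated array at 0 h at the left of its own time course. PSMD11 peaks at 6 h of ATO in MM.1s, KMS11 and 8226/S and goes on upward in U266, and PSMD10 peaks at 6 h of DAR in all 4 lines.

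At 24 h of ATO the members were again above Control 2, but fewer passed the test. PSMC2 (0.43 ± 0.09), PSMB2 (0.42 ± 0.10) and PSMB4 (0.40 ± 0.09) rose and 0 fell, against 2.73% of all genes higher and 2.27% lower. The median change of the members was 0.25, 30 of 30 were above 0, and the line medians were 0.34 in U266, 0.37 in MM.1s, 0.22 in KMS11 and 0.09 in 8226/S. None of the 3 calls remained without MM.1s or without KMS11, 1 member passed without U266, and 6 passed without 8226/S. Calls over all genes moved too, to 205 without MM.1s, 205 without KMS11, 306 without U266 and 951 without 8226/S. With all lines they were 772. PSMD11 had 8260, 7071, 8138 and 5665 units at 24 h in U266, MM.1s, KMS11 and 8226/S, which sit against the Control 2 values given above as a change of 0.39 ± 0.12 (limma adjusted p = 0.0586). PSMB4, a structural beta subunit, had 16090, 18910, 16410 and 11500 units at 24 h, against 12360, 13120, 11300 and 10440 units in Control 2. Each line was higher with ATO, least so 8226/S (limma adjusted p = 0.0104). Of the proteolytic sites 0 passed the test, with changes of 0.16 ± 0.11 for PSMB5, 0.30 ± 0.12 for PSMB6 and 0.32 ± 0.10 for PSMB7. PSMD14 had a change of 0.35 ± 0.11, PSMD12 of 0.30 ± 0.12, PSMC4 of 0.28 ± 0.15 and PSMD4 of 0.19 ± 0.09. PSMD8 had the lowest change, 0.01 ± 0.09. The core and the cap had like medians, 0.25 over 13 genes of the 20S and 0.28 over 14 genes of the 19S. With every untreated array in the baseline, PSMD3 alone rose, against 4.09% of all genes higher and 3.32% lower. The median change of the members was -0.09, the other side of 0. The lower level of PSMD3 in Control 1 than in Control 2 by itself raises its change there.

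At 48 h of ATO 8 members rose and 0 fell, against 6.35% of all genes higher and 5.38% lower. They were the beta subunits PSMB1, PSMB4 and PSMB7, the ATPase PSMC2, the base subunits PSMD1 and PSMD4, the lid subunit PSMD11 and the assembly factor PSMD9. PSMD11 had 9262, 8919, 9739 and 5756 units at 48 h in U266, MM.1s, KMS11 and 8226/S, against the Control 2 values above, so 3 lines stood clear of their controls and 8226/S nearly met its own (change 0.59 ± 0.12, limma adjusted p = 0.00226). PSMB7 had 10890, 8359, 7743 and 8808 units at 48 h, lower than Control 2 in 8226/S and higher in the other lines (change 0.37 ± 0.10, limma adjusted p = 0.0202). The line medians over the members were 0.25, 0.44 and 0.33 in U266, MM.1s and KMS11 and -0.02 in 8226/S, and the median over the lines was 0.24. PSMD4, a ubiquitin receptor, had 8769, 12430, 15430 and 8105 units at 48 h, against 7817, 8122, 11060 and 7945 units in Control 2, with 8226/S again nearly level (change 0.32 ± 0.09, limma adjusted p = 0.023). PSMD9 had 2339, 1991, 3090 and 2275 units at 48 h, against 2032, 1794, 1953 and 1837 units in Control 2 (change 0.33 ± 0.09, limma adjusted p = 0.0259). The groups overlapped only through MM.1s, which was lowest in both. PSMB5 (0.16 ± 0.11) and PSMB6 (0.22 ± 0.12) did not pass the test, nor did PSMD14 (0.23 ± 0.11) and PSMD12 (0.30 ± 0.12). PSMA2 had the lowest change, -0.03 ± 0.07. Without MM.1s or without KMS11, 1 member passed the test, without U266 3 did, and without 8226/S 12 did. Calls over all genes were then 763 without MM.1s, 648 without KMS11, 1129 without U266 and 1976 without 8226/S, against 1812 with all lines. Against all 8 untreated arrays, PSMD5 alone rose, beside 9.35% of all genes higher and 7.32% lower. The median change of the members was -0.14. PSMD5, too, was lower in Control 1 than in Control 2, which by itself raises its ATO change on this baseline.

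Comparing the ATO times with each other needs no untreated array. From 6 to 24 h, 0 members passed the test (limma), against 0.143% of all genes higher and 0.317% lower. At an unadjusted p under 0.05, 10 members were lower at 24 h and 0 were higher, against 1660 of all 15437 genes in either direction. All 14 tested cap subunits had a change below 0 (median -0.30), against 9 of 13 core subunits (median -0.05). PSMD11 had 8260, 7071, 8138 and 5665 units at 24 h, against 7534, 11180, 12480 and 8615 units at 6 h, in U266, MM.1s, KMS11 and 8226/S. It was lower at 24 h in 3 lines, by 0.60 to 0.66, and higher by 0.13 in U266 (change -0.44 ± 0.12, limma adjusted p = 0.104). PSMC6 had the same shape, with 3220, 2661, 3078 and 2561 units at 24 h, against 2916, 3969, 4533 and 4214 units at 6 h (change -0.42 ± 0.15, limma adjusted p = 0.221). The median of the members was 0.11 in U266, -0.38 in MM.1s, -0.15 in KMS11 and -0.12 in 8226/S. A test of whether the lines differed in their ATO response called 0 members (limma F test over 3 interaction terms, 0.11% of all genes called). The smallest p among the members was that of PSMB6 (limma F test, adjusted p = 0.555). In this test the 6, 24 and 48 h arrays of a line served as its replicates. Without U266, 1 member was lower at 24 h than at 6 h, where 23 of all genes were called against 71 with all lines. From 24 to 48 h 0 members passed the test, and 0% of all genes were higher and 0% lower. At an unadjusted p under 0.05, 0 members were called there, against 983 of all 15437 genes. The median change of the members was -0.01.

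**Figure D3:**
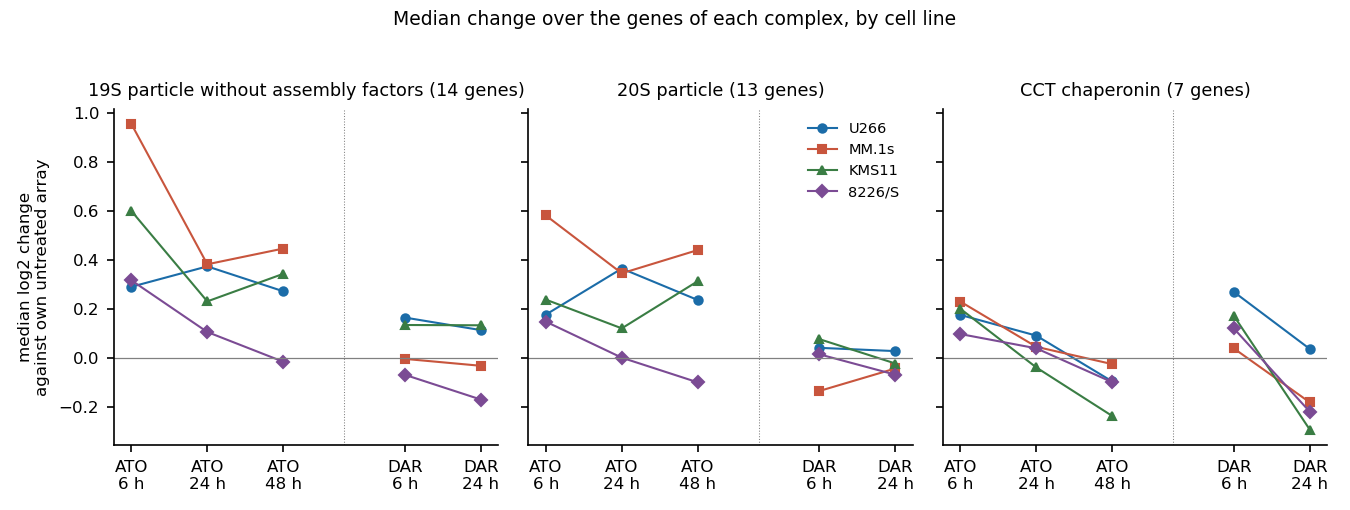
Median log2 change, against the untreated array of the same line and set, over 14 genes of the 19S cap, 13 of the 20S core and 7 of the CCT chaperonin, for each line at each ATO and DAR time. The cap median is 0.96 in MM.1s and 0.60 in KMS11 at 6 h of ATO, and 3 lines are lower at 24 h while U266 is not.

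After DAR few member RNAs changed. At 6 h 1 member rose and 0 fell, against 6.85% of all genes higher and 6.34% lower, and the median change was 0.02. The member that rose was PSMD10, also called gankyrin, an assembly factor that binds an ATPase of the base. It had 7094, 7319, 8637 and 7439 units at 6 h of DAR in U266, MM.1s, KMS11 and 8226/S, against 6248, 5031, 5628 and 6544 units in Control 1. Every DAR array was above every Control 1 array (change 0.38 ± 0.10, limma adjusted p = 0.0108). The call was lost without MM.1s and without KMS11, where 1118 and 1094 of all genes were called, against 2036 with all lines. PSMD12 had 6174, 5571, 7357 and 7007 units at 6 h of DAR, against 4518, 4239, 5935 and 6918 units in Control 1, higher in each line but least in 8226/S (change 0.29 ± 0.12, limma adjusted p = 0.115). PSMD11, which had the highest change at 6 h of ATO, had 9123, 8542, 12470 and 10020 units at 6 h of DAR, against 8031, 7794, 11310 and 9838 units in Control 1 (change 0.12 ± 0.12, limma adjusted p = 0.591). PSMB5 had 6260, 2627, 5411 and 5460 units at 6 h of DAR, against 5835, 3230, 5665 and 8117 units in Control 1, lower in each line but U266 (change -0.21 ± 0.11, limma adjusted p = 0.253). The catalytic subunits PSMB6 and PSMB7 had changes of 0.09 ± 0.12 and 0.12 ± 0.10, the ATPase PSMC4 of 0.15 ± 0.15, PSMD4 of 0.14 ± 0.09 and PSMD14 of 0.06 ± 0.11. PSMD5 was lower in every line, without passing the test (-0.26 ± 0.14, limma adjusted p = 0.25). With all 8 untreated arrays as the baseline, 6 members rose and PSMD5 fell at 6 h of DAR, against 7.22% of all genes higher and 7.07% lower, and the median change was 0.44.

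At 24 h of DAR 0 members passed the test (limma), against 0.492% of all genes higher and 0.13% lower. At an unadjusted p under 0.05, 3 members were lower and 0 higher, against 2280 of all 15437 genes in either direction. The median change of the members was 0.00. PSMB5 had 5708, 2704, 5126 and 5044 units at 24 h of DAR in U266, MM.1s, KMS11 and 8226/S, lower than Control 1 in each line, and most in 8226/S (change -0.28 ± 0.11, limma adjusted p = 0.245). In the comparison with all 8 untreated arrays 0 members passed as well, against 1.59% of all genes higher and 1.59% lower, with a median change of 0.35. From 6 to 24 h of DAR, PSMD10 and PSMD12 fell, against 4.06% of all genes higher and 3.61% lower. PSMD10 had 6136, 3972, 4761 and 4758 units at 24 h, against 7094, 7319, 8637 and 7439 units at 6 h, with no overlap (change -0.65 ± 0.10, limma adjusted p = 0.000239). PSMD12 had 4595, 3658, 5681 and 5956 units at 24 h, against 6174, 5571, 7357 and 7007 units at 6 h (change -0.41 ± 0.12, limma adjusted p = 0.0366). Each line was lower at 24 h, and this call was lost without U266, without MM.1s and without KMS11. Calls over all genes were then 962, 599 and 586, against 1184 with all lines. A test of whether the lines differed in their DAR response called 0 members (limma F test, 0.0324% of all genes called). The smallest p was that of PSMB5 (limma F test, adjusted p = 0.793). Here the 6 and 24 h arrays of a line served as its replicates.

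The compounds were given at the same dose, 2 µM, in 8226/S alone, with 1 array per compound and time and so no test. In that line the median change of the members was 0.24 for ATO and -0.03 for DAR at 6 h, and 0.09 for ATO and -0.09 for DAR at 24 h, each against its own control. PSMD11 in 8226/S had a change of 0.68 for ATO and 0.03 for DAR at 6 h. PSMC6 there had 0.70 for ATO and -0.35 for DAR, and PSMD14 had 0.52 for ATO and 0.01 for DAR. ATO and DAR arrays belong to different sets, so compound and set cannot be told apart here. The PSMD11 signal at 6 h was 8615 units with ATO and 10020 with DAR, against 5378 in Control 2 and 9838 in Control 1. That of PSMC6 was 4214 with ATO and 4428 with DAR, against 2591 in Control 2 and 5645 in Control 1. In the other 3 lines the doses differed (2 µM ATO beside 3 or 4 µM DAR). There the 6 h medians were 0.23 for ATO beside 0.10 for DAR in U266, 0.77 beside -0.05 in MM.1s, and 0.42 beside 0.12 in KMS11.

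The untreated arrays themselves differed. In Control 2, 26 of the 30 members were lower than in Control 1 and 2 were higher, against 15.5% of all genes lower and 28.2% higher. The median difference of the members was -0.74 and that of all genes 0.21, and the line medians of the members lay between -0.76 and -0.67. PSMB7 had 8012, 6138, 4819 and 9256 units in Control 2 in U266, MM.1s, KMS11 and 8226/S, against 16940, 12170, 12950 and 18610 units in Control 1 (difference -1.12 ± 0.12, limma adjusted p = 1.83e-07). PSMC6 had 2460, 1859, 2334 and 2591 units in Control 2, against 5038, 4892, 5099 and 5645 units in Control 1 (difference -1.16 ± 0.14, limma adjusted p = 9.79e-07). Neither pair of groups overlapped. The lid subunit PSMD3 ran the other way, with 3037, 4032, 7721 and 4529 units in Control 2, against 1235, 2194, 5947 and 3076 units in Control 1 (difference 0.77 ± 0.21, limma adjusted p = 0.00498). PSMD5 was the other gene that was higher in Control 2 (0.50 ± 0.16, limma adjusted p = 0.0119). Complexes of similar build shifted too. The CCT chaperonin, which folds actin and tubulin, had 6 of 7 tested subunits lower in Control 2 (median -0.57). Of 9 subunits of the COP9 signalosome, a relative of the lid, 6 were lower and 2 higher (median -0.51). What the 2 control numbers stand for is not in the labels, so a difference between untreated cultures and one between sets of arrays cannot be told apart. Markers of other cell types shifted as well, with 4 of 6 tested higher in Control 2 than in Control 1. Some of these signals were low. CD3E had 201, 246, 384 and 259 units in Control 2, against 21.6, 41.5, 123 and 57.3 units in Control 1. The array medians were also higher, at 124, 132, 118 and 124 units in Control 2, against 88.4, 79.5, 65.5 and 77.3 units in Control 1. Line order is as above. The summed signal of the 7 markers of other cell types was 1769 to 14200 units per array in Control 2, against 849 to 18760 units in Control 1. None of the 7 was at 0 on any array, but CD14 was as low as 4.79 units. The part of these markers in the difference was not tested.

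**Figure D4:**
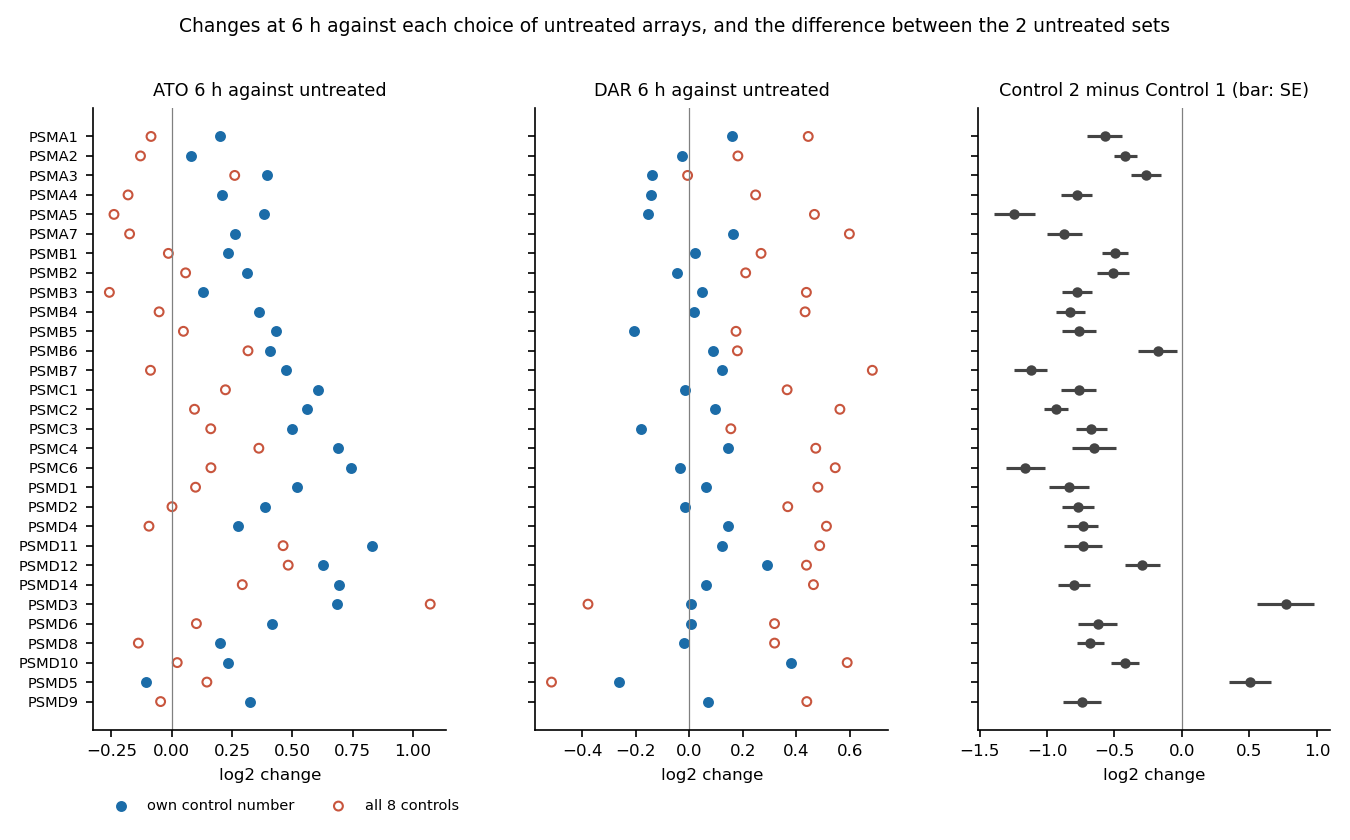
For each gene, the log2 change at 6 h of ATO (left) and of DAR (middle) against the control of the same number (filled) and against all 8 untreated arrays (open), and the difference of Control 2 minus Control 1 with its standard error (right). PSMD3 and PSMD12 at 6 h of ATO are called with either baseline, while most open ATO points lie near 0. An open point differs from its filled point through the control difference at the right, which is above 0 for PSMD3.

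The value of a gene is that of its brightest probe set, and 16 of the 30 genes had more than 1 probe set that passed the filter on low values. Over all 52 such probe sets 22 rose and 0 fell at 6 h of ATO, against 2.5% of all 36740 probe sets higher and 1.59% lower. At 6 h of DAR the dimmer probe sets of several genes went down although the brightest did not. There 2 probe sets rose and 5 fell, against 6.03% of all probe sets higher and 6.3% lower, and the 5 belonged to PSMA2, PSMC2 (2 of them), PSMD11 and PSMD12. The dimmer probe set of PSMD11 had 272, 364, 571 and 263 units at 6 h of DAR in U266, MM.1s, KMS11 and 8226/S, against 439, 897, 1141 and 712 units in Control 1. Each line was lower (change -1.05 ± 0.17, limma adjusted p = 0.000158), beside 0.12 ± 0.12 for the brightest probe set. The dimmer probe set of PSMD12 had 292, 1118, 1408 and 674 units at 6 h of DAR, against 767, 1929, 2662 and 1508 units in Control 1 (change -1.03 ± 0.15, limma adjusted p = 5.05e-05). That of PSMA2 had 1282, 1505, 1369 and 927 units at 6 h of DAR, against 2696, 2918, 2410 and 1955 units in Control 1, with no overlap (change -0.96 ± 0.12, limma adjusted p = 7.9e-06). All 5 were higher again at 24 h than at 6 h of DAR (0.49 to 1.09), among 5 probe sets that rose and 3 that fell, against 4.23% of all probe sets higher and 3.16% lower. The ratio of 3′ to 5′ signal of ACTB moved in the same samples. It was 1.52, 1.40, 1.29 and 1.32 at 6 h of DAR in U266, MM.1s, KMS11 and 8226/S, against 1.90, 1.74, 1.71 and 1.37 in Control 1, and 2.19, 1.99, 1.69 and 1.89 at 24 h of DAR. It was thus lowest at 6 h in each line, and its part in the probe set changes was not tested.

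Probe sets of 1 gene were called in opposite directions for PSMD12 from 6 to 24 h of DAR and for PSMD11 at 48 h of ATO. At 48 h of ATO the dimmer PSMD11 probe set had 370, 692, 432 and 403 units, against 783, 852, 1250 and 743 units in Control 2 (change -0.91), where the brightest rose by 0.59. Over all members 10 probe sets rose and 2 fell there, against 4% of all probe sets higher and 4.42% lower. In Control 2 minus Control 1 the probe sets of PSMB2, PSMD4 and PSMD9 were called in opposite directions, with 6 member probe sets higher and 37 lower, against 28.3% of all probe sets higher and 11.9% lower. Which part of a transcript each probe set reads was not tested.

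**Figure D5:**
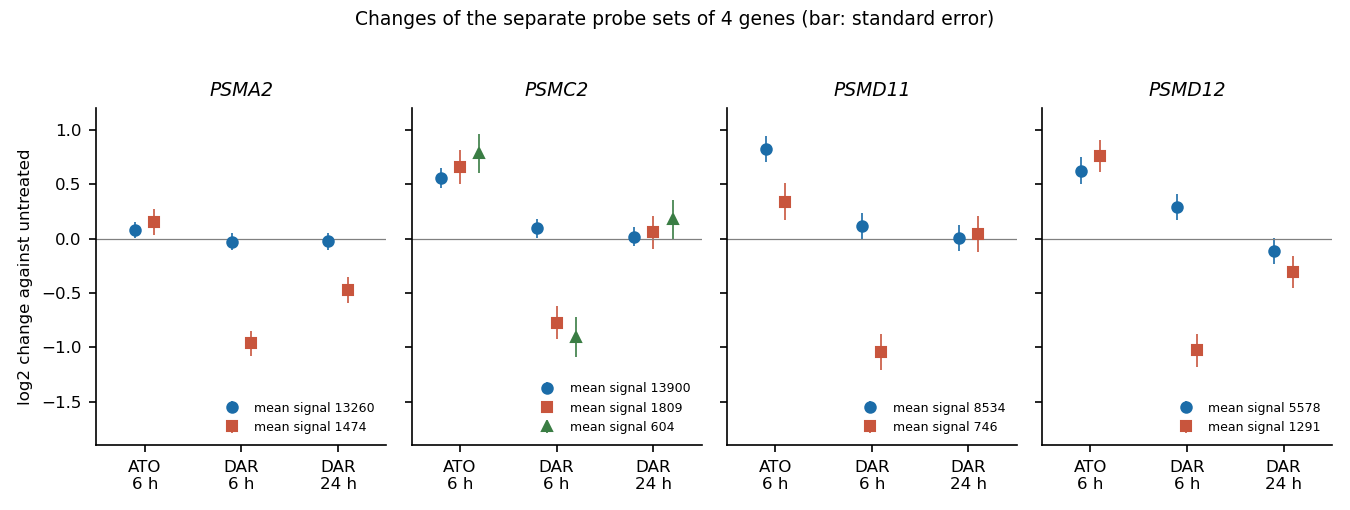
Log2 change against the untreated arrays of the same set (n = 4 lines) of each probe set of PSMA2, PSMC2, PSMD11 and PSMD12. Each is marked by its mean signal over the 28 arrays. Bars are 1 standard error from the fit to all 28 arrays. At 6 h of DAR the dimmer probe sets lie between -1.05 and -0.77 while the brightest lie between -0.03 and 0.29.

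Genes that act with the proteasome were read as lists. Of the proteasome-bound factors 5 of 9 tested rose at 6 h of ATO and 0 fell, beside 3.78% of all genes higher (median 0.36). Against all 8 untreated arrays 2 of the 9 rose, ADRM1 and UBQLN1, and the median was 0.12. ADRM1, a ubiquitin receptor of the cap, had 5246, 9515, 10290 and 6013 units at 6 h of ATO in U266, MM.1s, KMS11 and 8226/S, against 4431, 4346, 8236 and 4000 units in Control 2. It was higher in each line (change 0.57 ± 0.13, limma adjusted p = 0.00872), with 0.62 against all 8 untreated arrays (limma adjusted p = 0.0128). The deubiquitinase USP14 (0.55 ± 0.10) and the shuttle UBQLN1 (0.51 ± 0.10) were among the 5, and USP14 had 0.25 against all 8 untreated arrays (limma adjusted p = 0.233). SEM1, a small subunit of the lid, had a change of 0.20 ± 0.13 (limma adjusted p = 0.451). POMP, the chaperone of core maturation, rose at 6, 24 and 48 h of ATO by 0.37, 0.38 and 0.44 (limma adjusted p = 0.023, 0.0234 and 0.00467). None of these 3 POMP calls held against all 8 untreated arrays, where its changes were 0.06, 0.07 and 0.13 (limma adjusted p = 0.8, 0.754 and 0.522). The core chaperone PSMG4 fell at 6 h by 0.71, and by 1.32 against all 8 untreated arrays (limma adjusted p = 0.00306). Of 4 tested activators and inhibitors of the core 0 were called at 6 h of ATO. The CCT chaperonin had 1 of 7 that rose at 6 h of ATO (median 0.18) and the COP9 signalosome 0 of 9 (median 0.11).

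The inducible beta subunits, which replace the catalytic ones in the immunoproteasome, did not follow the members at 6 h of ATO. PSMB8, the inducible counterpart of PSMB5, had 1733, 434, 533 and 1977 units at 6 h of ATO in U266, MM.1s, KMS11 and 8226/S, against 3310, 2457, 1604 and 2552 units in Control 2. It fell in each line (change -1.31 ± 0.26, limma adjusted p = 0.00251). PSMB9 also fell (-0.70 ± 0.15), and PSMB10 had a change of -0.19. Against all 8 untreated arrays both calls held (PSMB8 limma adjusted p = 0.00213, PSMB9 limma adjusted p = 0.0324).

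In the NFE2L1 pathway 3 of 6 tested genes rose at 6 h of ATO and 0 fell, against 3.78% of all genes higher and 2.64% lower. Against all 8 untreated arrays 3 rose and 0 fell, where 4.15% of all genes were higher and 3.97% lower. VCP and MAFG rose with either baseline. MAFG, a small MAF partner of NFE2L1 and NFE2L2, had 2485, 3736, 6257 and 2035 units at 6 h of ATO in U266, MM.1s, KMS11 and 8226/S, against 1199, 1150, 2335 and 1212 units in Control 2 (change 1.21 ± 0.14, limma adjusted p = 6.43e-06). VCP, the segregase that extracts NFE2L1 from the endoplasmic reticulum, rose by 0.58 ± 0.10. NFE2L1 had a change of 0.42 ± 0.15 at 6 h (limma adjusted p = 0.0993) and rose at 24 h (0.61 ± 0.15) and 48 h (0.89 ± 0.15). At 6 h of DAR MAFG (0.91 ± 0.14), NFE2L1 (0.64 ± 0.15) and MAFF (2.39 ± 0.33) rose, beside the members' median of 0.02. Of all genes 6.85% were higher and 6.34% lower there. Plasma cell markers moved in the same samples: 3 of 7 fell at 6 h of ATO, 5 at 24 h and 6 at 48 h, and 2 at 6 h of DAR. Of all genes 2.64%, 2.27%, 5.38% and 6.34% were lower in the same order. None of the 7 was at 0 on any array, but CD38 was as low as 9.30 units and MZB1 as low as 13.7 units. Both values lie below the lowest array median of 65.5 units. The summed signal of the plasma cell markers was 27620 to 59370 units per array at 6 h of ATO, against 36860 to 88580 units in Control 2. The part of these markers in the members' changes was not tested.

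Lines differed in the level of most members before treatment. An F test over the 8 untreated arrays called 22 of the 30 members, against 51.7% of all genes. Control 1 and Control 2 of a line served as its replicates in this test. PSMD3 was highest in KMS11, with a mean signal of 6834 units, followed by 3803 in 8226/S, 3113 in MM.1s and 2136 in U266 (limma F test, adjusted p = 0.000264). PSMB5 had 6220 units in 8226/S, 4709 in U266, 4479 in KMS11 and 2620 in MM.1s (limma F test, adjusted p = 0.000284). PSMA3 had 11140 units in 8226/S, 8374 in KMS11, 7378 in MM.1s and 4957 in U266 (limma F test, adjusted p = 0.000284). PSMB1, a structural beta subunit, had 18160 units in 8226/S, 15090 in KMS11, 13310 in U266 and 9166 in MM.1s. The base scaffold PSMD1 had 6663 units in KMS11, 4882 in 8226/S, 4074 in U266 and 2801 in MM.1s. PSMA7 had 16500 units in KMS11, 12000 in 8226/S, 11430 in MM.1s and 8415 in U266, where 8226/S and MM.1s are close. Over all 22 called members, KMS11 was highest for 10, 8226/S for 9, U266 for 2 and MM.1s for 1. MM.1s was lowest for 8 of them, U266 for 7, KMS11 for 4 and 8226/S for 3. The members that did not pass were PSMB4, PSMC2, PSMC3, PSMC6, PSMD2, PSMD14, PSMD9 and PSMD10. PSMD9 had mean signals of 2477 to 2708 units over the lines, and PSMC6 of 3375 to 4118 units.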

How the data were processed

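RNA of 4 cell lines was measured on 28 arrays. The authors deposited 1 intensity value per probe set, made with GCOS per the submitters' processing notes (version not given in the sources used here); each array had a trimmed mean near 500. From these, log2(signal + 29) was computed. Probe sets were named through GEO's platform annotation, with symbols updated by Entrez identifier (41097 with 1 symbol, 1801 with several, 11777 unnamed). A gene was read from its brightest probe set, and kept if above the 50th percentile on at least 4 arrays. Tests used limma 3.58.1 in R 4.3.3, over all genes kept, with Benjamini-Hochberg adjustment at 0.05, and were checked on simulated data. The fit held a baseline per line and control number. Deviations of arrays of the same line correlated by at least 0.6, which bears on the line as a block. Named members were the extremes of each role group and the smallest p-values of a comparison, plus a fixed set. The members and lists were chosen with earlier results of these data known. Alternatives covered baseline, block, normalization, offset, filter, probe set and leaving out a line. No probe-level scans were used, and depth does not apply: the number of arrays limits the precision.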

Additional observations from a re-analysis of the deposited data

Results flagged for a closer look

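In 117 sets of 4 line values tested, 5 had 1 line far from the others by Dixon's test, which chance gives in about 1 set of 20. PSMD11 from 6 to 24 h of ATO had a log2 change of 0.13 in U266, beside -0.66 to -0.60 in the other lines. PSMD5 over the same times had 0.58 in 8226/S, beside 0.04 to 0.10 in the other lines. PSMC4 at 6 h of DAR had -0.094 in 8226/S, beside 0.21 to 0.26 in the others. PSMD11 at 24 h of DAR had -0.13 in 8226/S, beside 0.04 to 0.06 in the others. PSMD11 in Control 2 minus Control 1 had -0.87 in 8226/S, beside -0.70 to -0.68 in the others.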

How the results depend on the processing

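Over 18 results and 12 alternatives, 153 of 206 values stayed near the first value, though 7 of these, medians of -0.033 to 0.028 at 6 and 24 h of DAR and from 24 to 48 h of ATO, were at 0 or on its other side. With the main settings 990, 772 and 1812 of all genes were called at 6, 24 and 48 h of ATO. For 6 h of DAR the count was 2036, for 6 to 24 h of ATO 71 and for 6 to 24 h of DAR 1184. Control 2 minus Control 1 had 6752. With all 8 untreated arrays as the baseline the median change of the members was 0.053, -0.094 and -0.137 at 6, 24 and 48 h of ATO. It was 0.44 and 0.35 at 6 and 24 h of DAR. The members called were 2, 1 and 1 at 6, 24 and 48 h of ATO and 7 at 6 h of DAR. Calls over all genes were 1253, 1144, 2573 and 2205 there. With line alone as the replicate block, 11 members were called at 6 h of ATO, 3 at 48 h, and 1 from 6 to 24 h of DAR. Calls over all genes fell as well, to 582, 1090 and 765. With no replicate block, 0 were called at 6, 24 and 48 h of ATO, at 6 h of DAR and from 6 to 24 h of DAR. Control 2 minus Control 1 then had 17. Calls over all genes were 30, 15, 18, 47, 9 and 2871 in the same order. With quantile normalization, 9 were called at 24 h and 14 at 48 h of ATO and 1 from 6 to 24 h of DAR. Calls over all genes were 978, 2119 and 931. The median of the members was 0.038 from 6 to 24 h of DAR and -0.48 in Control 2 minus Control 1. With each array centred on its median, 10, 0 and 1 were called at 6, 24 and 48 h of ATO. At 6 h of DAR 0 were called, and 1 from 6 to 24 h of DAR. Calls over all genes were 641, 502, 1405, 1846 and 816 in that order. The medians of the members were -0.073 and -0.094 at 6 and 24 h of DAR and -1.26 in Control 2 minus Control 1. With the mean of a gene's probe sets, 1 was called at 24 h of ATO, 2 at 48 h (1 higher and 1 lower) and 2 from 6 to 24 h of ATO (both lower). For DAR 5 were called at 6 h (1 higher and 4 lower) and 4 from 6 to 24 h (3 higher and 1 lower). Calls over all genes were 584, 1460, 73, 1735 and 941 in that order. The Control 2 minus Control 1 median of the members was -0.66. Leaving out 1 line gave 4 to 17 members called at 6 h of ATO, 0 to 6 at 24 h and 1 to 12 at 48 h. Calls over all genes were then 255 to 802, 205 to 951 and 648 to 1976. From 6 to 24 h of ATO 0 to 1 members were called (4 to 82 of all genes). At 6 h of DAR 0 to 1 were called (1094 to 1837), and 1 to 2 from 6 to 24 h of DAR (586 to 962). Control 2 minus Control 1 medians of the members were -0.73 to -0.69. The cause was not tested for any of these. An offset of 1 changed no count of members called, and no filter on low values changed 1, to 27 against 28 in Control 2 minus Control 1. With 4 lines per group, 1 array each and 2 untreated arrays per line that differ, small changes of single members are beyond the reach of these data.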

Other observations

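Of 5 genes listed for ubiquitin and its activating enzyme, 2 were tested, UBB and UBA1. At 6 h of ATO UBB had a change of 0.15, higher in each line, and UBA1 of -0.17, lower in each line. Of these 2 tested genes 0 were called (limma). At 6 h of DAR UBB rose by 0.31 ± 0.10 (limma adjusted p = 0.0354), with a mean of 39660 ± 9890 signal units, against 31370 ± 1769 units in Control 1 (SD, n = 4). The core activator PSME3 fell at 6 h of DAR by 0.52 (limma adjusted p = 0.0118), and the ligase UBE3C, which can bind the proteasome, fell by 0.61 (limma adjusted p = 0.0032). From 6 to 24 h of DAR 4 of 7 subunits of the CCT chaperonin fell, by 0.36 to 0.51, against 3.61% of all genes lower. Of the 30 proteasome members 2 fell there. The difference between the 2 lists was not tested. MAFF, which had risen at 6 h of DAR, fell by 2.04 from 6 to 24 h of DAR (limma adjusted p = 0.000351).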
